A study of Mus musculus with 12 samples.

Results

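The comparison described here is between dorsal skin of mice that developed dinitrochlorobenzene (DNCB) dermatitis while receiving subcutaneous mesenchymal stem cells (scMSC, 3 libraries) and skin of mice that never met DNCB (control, 3 libraries), 6 of the 12 skin libraries in the series. It addresses how far treated skin still differs from never-exposed skin. Genes averaging 0.1 FPKM or more (fragments per kilobase, scaled to the library's total) across the 12 libraries were compared, 21890 of the 36400 in the table. All mice were female BALB/c, an albino strain, 6 weeks old at the start. Their backs were shaved and treated with hair removal cream 2 days before the first application, and shaved again on day 24. Skin was taken on day 30. Control mice received only the vehicle, acetone and olive oil mixed 3 to 1. The scMSC mice received DNCB at 1% up to day 9 and at 0.5% from day 12 to day 27. They also received 4 injections beside the inflamed area from day 13 to day 25. Each injection held 2000000 mesenchymal stem cells of human umbilical cord in 100 µL. The DNCB group received DNCB without cells, and the scivMSC group received the same cells by both routes, 50 µL subcutaneously and 50 µL intravenously through the tail. Each of these groups also has 3 libraries. No group received the cells without DNCB, and no injection without cells is described. A difference between scMSC and control skin thus carries DNCB, the injections and the cells together, and their parts cannot be told apart in it.

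DNCB is a reactive contact sensitizer that binds skin proteins, and repeated application gives a thickened, scaling and inflamed epidermis rich in granulocytes. Mouse back skin passes in waves through rest and growth of its hair follicles, and growing follicles build the hair shaft from hair keratins and keratin-associated proteins under transcription factors such as Foxn1 and Hoxc13. Follicle melanocytes multiply and make their pigment enzymes in the growth phase, also in albino animals, in which the enzyme tyrosinase does not work. Depilation can set off a growth phase.

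The estimated counts summed to between 63877153 and 75134001 per library, and replicates of a group correlated at 0.928 to 0.957 (Pearson's r across genes, which are not independent, on log2(FPKM + 0.1)). The labelled tissue was checked by Krt10, Krt14, Col1a1 and Acta1, which were detected in each of the 6 libraries, and the neutrophil marker Ly6g was listed at 0 in each. The liver gene Alb, used as a marker that skin should lack, stood at 34.9 to 76.6 FPKM over the 6 libraries, and where this RNA came from was not tested. The first principal component, 31.2% of the variance, set every scMSC and scivMSC library apart from every control and DNCB library, and the second, 24.2%, set DNCB apart from control. Over the tested genes the median log2 difference between scMSC and control was 0.0.

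**Figure D1:**
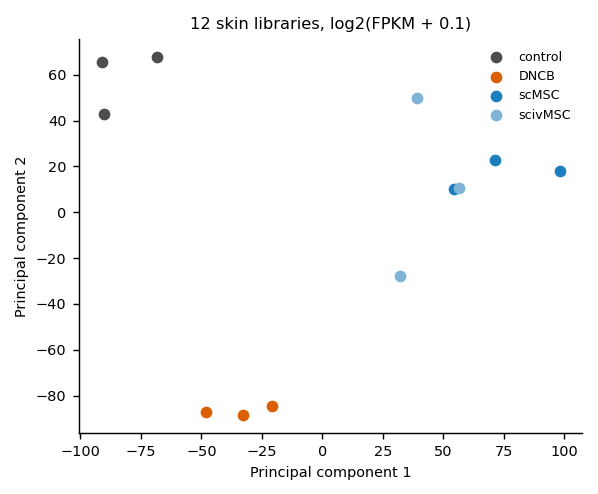
The 12 skin libraries on the first (x) and second (y) principal components of log2(FPKM + 0.1), 1 point per library and 1 colour per group. The 3 scMSC points lie with the scivMSC points at positive values of the first component, where no control or DNCB point lies.

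Treated skin was not at the control state. A gene was called at an adjusted p under 0.05 (edgeR quasi-likelihood test, Benjamini-Hochberg) and a fold above 2, and 2040 genes were called, 9.32% of those tested. Of these, 1120 (5.12%) were higher and 920 (4.2%) lower in scMSC skin. DESeq2 called 12.2% and limma on log2(FPKM + 0.1) 10.9% of all genes, and 32.3% had an unadjusted p under 0.05 in edgeR. The FPKM ranges of the 2 groups did not overlap for 25.9% of all genes with scMSC higher and 11.7% with scMSC lower, which is the background for each statement below that 2 groups did not overlap. With library size alone as the scaling, 68.8% of the called genes were higher against 54.9% here, and the median of all genes moved to 0.16. Without scMSC replicate 2, 731 genes were called higher in place of 1120. The largest changes went up: 331 genes were called more than 10-fold higher and 60 more than 10-fold lower. By the same rule 3098 genes (14.2%) were called between DNCB and control skin, 6.59% of all genes higher and 7.57% lower in DNCB skin. Between scMSC and DNCB skin 1861 (8.5%) were called, 4.66% higher and 3.84% lower in scMSC skin. The comparison of DNCB with control skin shares the control libraries, and that of scMSC with DNCB skin shares the scMSC libraries, so these counts are not independent.

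**Figure D2:**
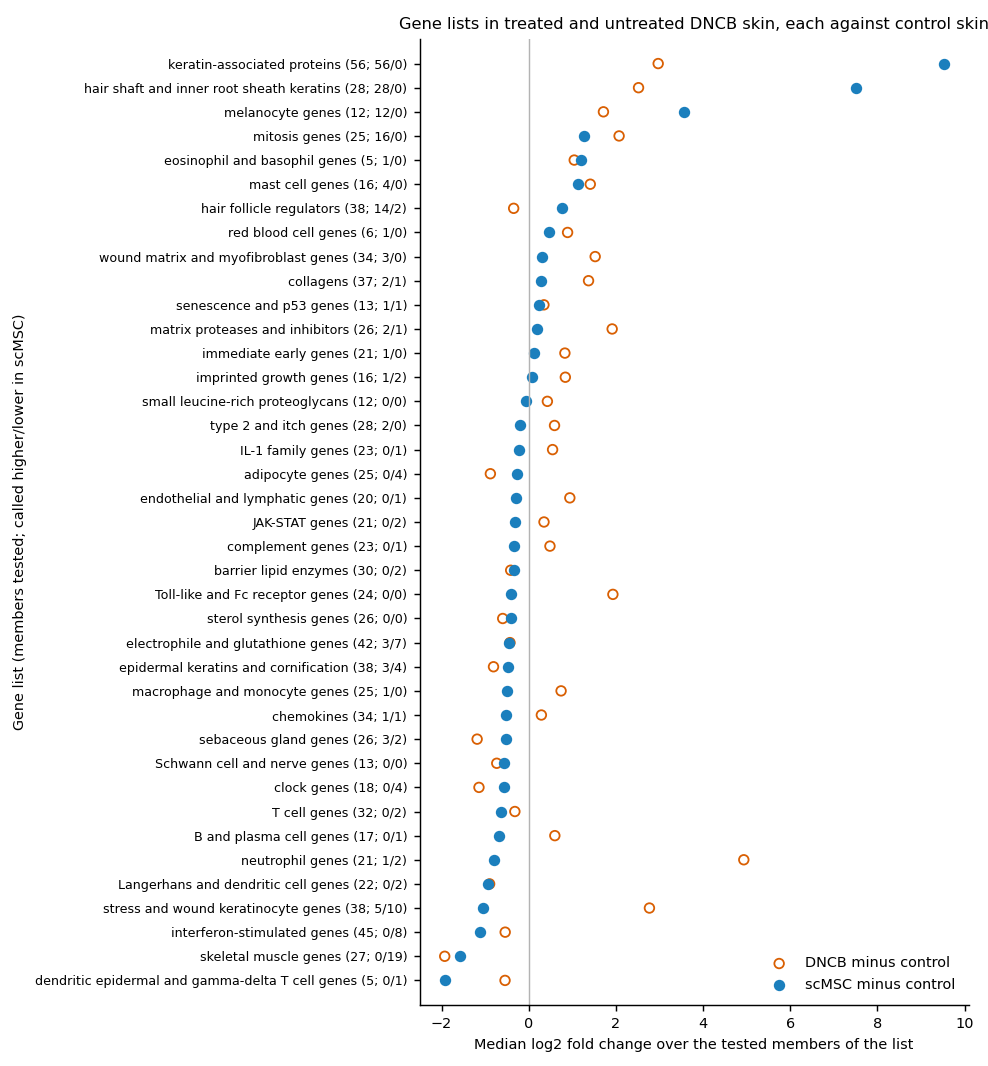
Median log2 fold change (x) of 39 gene lists (y), for scMSC minus control (filled) and DNCB minus control (open), which share the control libraries. Keratin-associated proteins, hair keratins and melanocyte genes lie farthest to the right for scMSC, and the neutrophil and stress keratinocyte lists lie to the left of 0 for scMSC and at 4.93 and 2.77 for DNCB.

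Genes of the hair shaft had the highest medians of all lists. All 28 tested hair shaft and inner root sheath keratins and all 56 tested keratin-associated proteins were called higher in scMSC than in control skin, against 5.12% of all genes, with median log2 fold changes of 7.50 and 9.52 (7.26 and 8.90 with genes at the detection floor set to their bounds). Members of these families are close in sequence and can share reads, so single values are less certain than the family. Krt31 and Krt34 are hair keratins of the shaft cortex. Their promoters, from RefSeq on GRCm38.p6, are shown because the keratins rose together. They cover the 250 bases before the start site at chr11:100050552-100050801 and chr11:100041555-100041804, both on the minus strand, with TATAAA in capitals, the sequence that starts 29 bases before the start of Krt31 and 31 bases before that of Krt34.
Krt31: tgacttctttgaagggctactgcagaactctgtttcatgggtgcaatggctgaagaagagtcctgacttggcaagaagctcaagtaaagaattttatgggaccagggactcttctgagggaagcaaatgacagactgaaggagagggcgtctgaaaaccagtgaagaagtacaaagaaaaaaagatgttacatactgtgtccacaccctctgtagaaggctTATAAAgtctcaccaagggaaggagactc
Krt34: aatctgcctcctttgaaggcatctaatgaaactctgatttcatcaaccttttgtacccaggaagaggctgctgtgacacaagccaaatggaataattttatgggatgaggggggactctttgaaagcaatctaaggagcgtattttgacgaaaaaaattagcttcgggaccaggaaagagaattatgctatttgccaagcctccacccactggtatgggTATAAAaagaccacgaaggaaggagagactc
On either strand, TATAAA was found in 13 of the 20 hair keratins that had a promoter window (65.0%), in 40 of 49 keratin-associated proteins (81.6%) and in 12.4% of all 32851 windows of that length. CTTTGA, the core recognised by Lef1 and its relatives, was found in 7 of 20 (35.0%), 12 of 49 (24.5%) and 13.8%. These matches are counts of letters, and family members share sequence.

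Krt31 was at 0.353, 1.48 and 0.193 FPKM in the control libraries and 154, 437 and 219.9 in the scMSC libraries, a log2 difference of 8.47 ± 1.10 (± SE, n = 3 per group throughout, adjusted p = 0.00125). Every scMSC library was far above every control library. DNCB skin without cells was at 3.23, 1.67 and 9.22 FPKM and scivMSC skin at 115, 31.5 and 88.0, so both lay between. Krt34 was at 0.0629, 0.903 and 0.0663 FPKM in control and 194, 609.9 and 218 in scMSC skin (9.76 ± 1.34, adjusted p = 0.00143), the same pattern. Krtap15, a keratin-associated protein that crosslinks keratin in the shaft, was at 0.188, 0.387 and 0.0512 FPKM in control and 310.1, 1220.1 and 344 in scMSC skin (11.34 ± 1.29, adjusted p = 0.000986). Krt26, a keratin of the inner root sheath that moulds the shaft, was at 0.0571, 0.954 and 0.0993 FPKM in control and 111, 365 and 106 in scMSC skin (8.87 ± 1.27, adjusted p = 0.00166). In Krtap15 and Krt26, replicate 2 was the highest of the control and of the scMSC libraries.

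For 16 keratin-associated proteins and 2 hair keratins every control library was at or under the detection floor of 3 fragments (12 estimated counts), so only a lower bound on the fold can be given. Krtap12-1 was listed at 0 in all 3 control libraries and at 27.5, 92.3 and 29.3 FPKM in scMSC skin, at least 180.3-fold higher. Krt39 rose from 0 in the 3 control libraries to 9.32, 28.4 and 9.26 FPKM, at least 141-fold. The 12 genes with the largest rise (Gm18596, Krtap12-1, Krt39, Krtap31-1, 1110057P08Rik, Krtap5-1, Spink12, Gm10013, Calhm4, Krtap31-2, Krtap19-1 and Gm9789) were all at the floor in control skin. Spink12, a protease inhibitor gene outside the hair lists, was also at 0 in control and at 12.4, 24.8 and 7.6 FPKM in scMSC skin, at least 82.5-fold higher, but at 25.1, 5.73 and 9.56 FPKM in DNCB skin. The log2 difference between scMSC and DNCB skin for Spink12 was 0.20 ± 0.62, adjusted p = 0.898.

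Together the 2 hair lists took 0.00739%, 0.103% and 0.00387% of the estimated counts in control libraries and 3.11%, 9.44% and 4.00% in scMSC libraries. DNCB libraries held 0.159%, 0.101% and 0.335%, and scivMSC libraries 2.70%, 1.03% and 1.51%. The scMSC libraries were thus the highest of the 4 groups, and replicate 2 held more than the other two together. With hair, muscle and mitochondrial genes left out before scaling, an alternative chosen after seeing the data, 1936 genes were called, 48.4% of them higher.

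**Figure D3:**
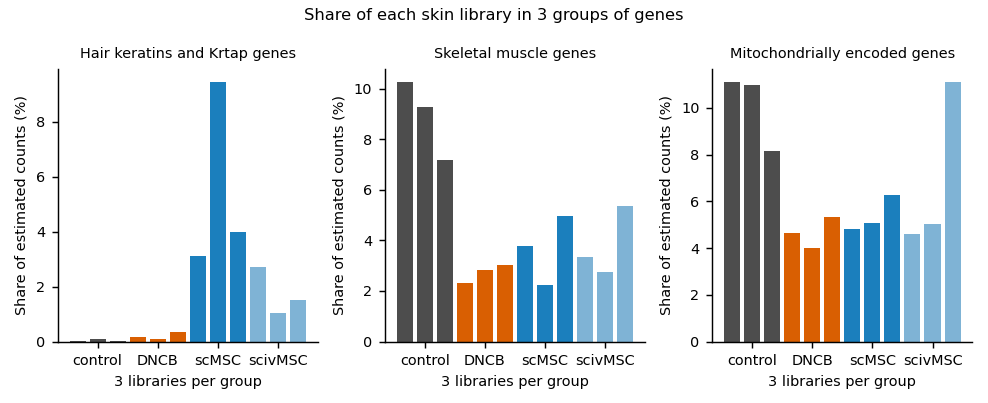
Share of each library's estimated counts (y, %) in hair keratins and keratin-associated proteins, skeletal muscle genes and mitochondrially encoded genes, 1 bar per library and 3 libraries per group (x). Hair genes are highest in the scMSC libraries, and muscle genes are highest in the control libraries, at 7.16% to 10.3%.

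Of 38 tested regulators of the follicle, 14 (36.8%, against 5.12% of all genes) were called higher and 2 (5.26%, near the 4.2% of all genes) lower, with a median of 0.76, where the median for DNCB against control was -0.35. Foxn1, the transcription factor whose loss makes mice nude, was at 2.18, 3.08 and 3.4 FPKM in control and 13.1, 28.8 and 16.7 in scMSC skin (2.62 ± 0.32, adjusted p = 0.00115), and the groups did not overlap. Hoxc13, which drives hair keratin genes, was at 5.54, 9.75 and 4.56 FPKM in control and 29.6, 67.8 and 63.4 in scMSC skin (2.86 ± 0.42, adjusted p = 0.00181). In DNCB skin Hoxc13 was at 6.15, 4.38 and 6.33 FPKM, which overlapped the control range. Msx2, Dlx3 and Lef1, factors of the hair matrix, had log2 differences of 3.64 ± 0.68, 3.17 ± 0.50 and 3.11 ± 0.57 (adjusted p = 0.00524, 0.00243 and 0.00491). Wnt5a and Fgf22 encode secreted signals, and rose by 2.58 ± 0.39 and 3.05 ± 0.47 on the log2 scale (adjusted p = 0.00203 and 0.00217). Corin, a protease of the dermal papilla, the cluster of mesenchymal cells that instructs the follicle, rose from 0.371, 0.722 and 0.272 to 2.27, 2.85 and 3.93 FPKM (2.55 ± 0.42, adjusted p = 0.00291).

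The 2 regulators called lower were Fgf18 and Lgr6. Fgf18, a signal that holds follicles at rest, was at 8.33, 5.55 and 5.63 FPKM in control and 2.88, 1.17 and 1.58 in scMSC skin (-1.97 ± 0.41, adjusted p = 0.00832). Lgr6, a receptor of follicle and gland stem cells, was at 5.21, 5.53 and 7.44 FPKM in control and 4.27, 2.62 and 3.12 in scMSC skin (-1.02 ± 0.21, adjusted p = 0.00745). Without control replicate 3 or without scMSC replicate 2, 1 regulator was called lower. The bulge keratin Krt15 did not pass the test, at 674, 493 and 420.2 FPKM in control and 434, 317 and 199 in scMSC skin (adjusted p = 0.107), with overlapping groups.

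Pigment cell genes rose as a block. All 12 tested melanocyte genes were called higher in scMSC than in control skin, against 5.12% of all genes. Their median was 3.57, and 9 to 12 were called when any 1 library was left out. The rise was not particular to scMSC skin: for scivMSC against control the median was 2.72, beside 0.039 over all genes tested. None of the 12 was called between scMSC and scivMSC skin, where 0.00457% of all genes were called. In bulk skin more cells of a type and more RNA per cell cannot be told apart. Tyrp1 and Tyr encode melanin enzymes, and their promoters are shown because the members rose together. The RefSeq windows of 250 bases lie at chr4:80833963-80834212 on the plus strand and chr7:87493513-87493762 on the minus strand of GRCm38.p6, with TCATGTG, the M-box bound by Mitf, in capitals on whichever strand it occurs, starting 47 and 22 bases before the start site.
Tyrp1: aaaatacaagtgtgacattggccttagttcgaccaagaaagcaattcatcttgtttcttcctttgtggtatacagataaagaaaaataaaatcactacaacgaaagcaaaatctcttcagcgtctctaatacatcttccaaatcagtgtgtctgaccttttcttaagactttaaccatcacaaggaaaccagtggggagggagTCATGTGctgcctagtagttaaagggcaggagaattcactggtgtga
Tyr: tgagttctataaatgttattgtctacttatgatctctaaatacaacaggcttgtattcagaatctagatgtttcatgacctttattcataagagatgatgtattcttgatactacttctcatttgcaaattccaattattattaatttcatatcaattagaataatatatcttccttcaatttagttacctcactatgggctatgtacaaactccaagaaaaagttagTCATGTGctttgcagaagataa
TCATGTG was found in 5 of the 8 melanocyte genes with a window (62.5%) and in 3.25% of all windows. A match marks letters, not a bound site.

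Tyrp1 was at 3.66, 4.68 and 3.13 FPKM in control libraries and 38.6, 33.0 and 66.1 in scMSC libraries (3.41 ± 0.29, adjusted p = 0.000655). It was at 16.8, 14.6 and 21.3 FPKM in DNCB skin, above control and below scMSC, and the 3 groups did not overlap. Tyr was at 0.461, 0.809 and 0.209 FPKM in control and 3.29, 5.45 and 9.32 in scMSC skin (3.43 ± 0.52, adjusted p = 0.00207). Mitf, the factor that specifies melanocytes, was at 5.14, 4.47 and 4.6 FPKM in control, 4.78, 4.24 and 5.9 in DNCB and 11.1, 18.1 and 14.6 in scMSC skin (1.48 ± 0.22, adjusted p = 0.00203). Among these 3 groups, which leave out scivMSC skin, Mitf was higher in scMSC skin alone (1.59 ± 0.22 against DNCB, adjusted p = 0.00239). Dct, Pmel and Mlana, which act in the pigment organelle, had log2 differences of 2.76 ± 0.42, 3.13 ± 0.56 and 3.78 ± 0.76 (adjusted p = 0.00211, 0.00439 and 0.00722). Replicate 3 was the highest scMSC library for each of these 3, unlike the hair keratins, where replicate 2 was. Kit, the receptor of melanocytes and mast cells, rose from 0.995, 1.15 and 1.08 to 3.1, 3.67 and 7.01 FPKM (1.93 ± 0.25, adjusted p = 0.00126).

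**Figure D4:**
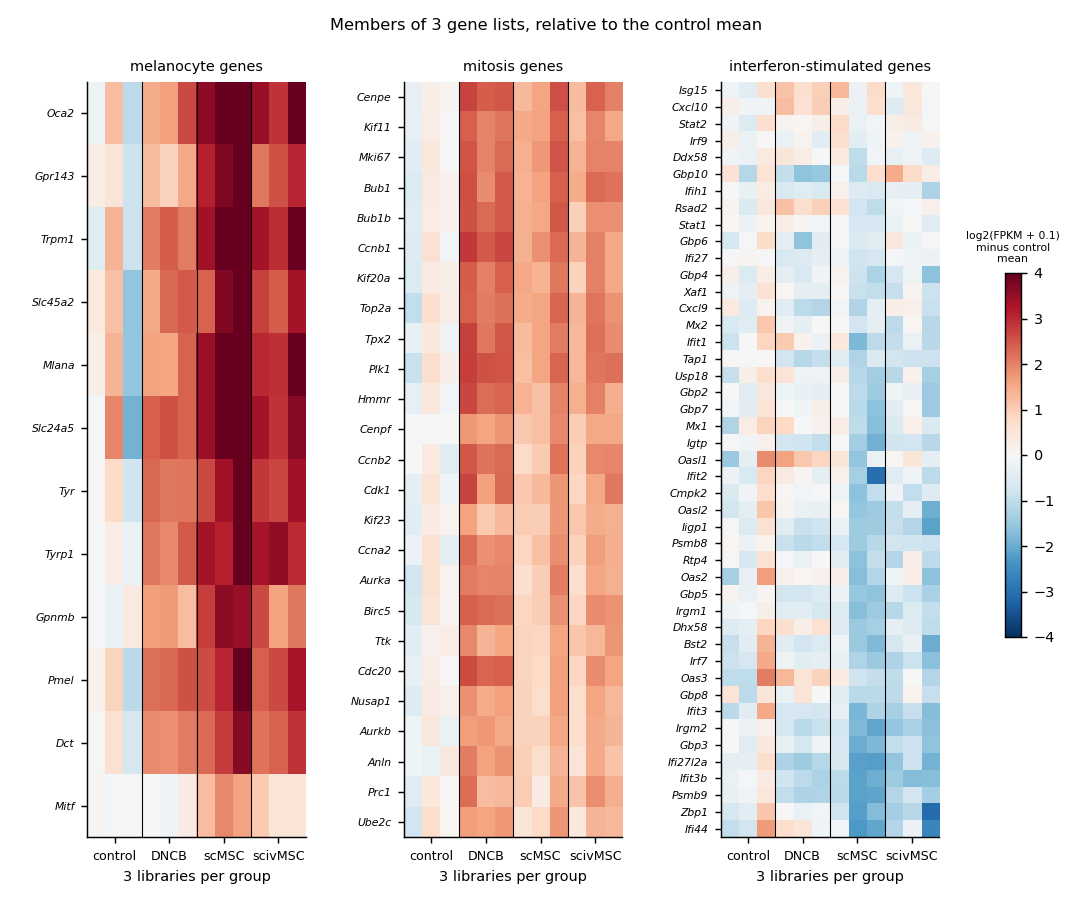
Level of each member of 3 lists (rows) in 12 libraries (columns, 3 per group), as log2(FPKM + 0.1) minus the mean of the 3 control libraries, with red higher and blue lower and colours cut at 4 either way. Melanocyte genes are darkest red in scMSC, mitosis genes are red in the 3 groups given DNCB, and most interferon-stimulated genes are blue in scMSC replicates 2 and 3 and paler in replicate 1.

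Keratinocyte genes of irritated epidermis did not move as 1 group. Of 38 tested stress and wound keratinocyte genes, 5 were called higher and 10 lower in scMSC than in control skin, with a median of -1.05. These are 13.2% and 26.3% of the list, against 5.12% and 4.2% of all genes. The median for DNCB against control was 2.77 with 26 called higher, beside 6.59% of all genes. The alarm keratins Krt6a and Krt6b, which mark hyperproliferative epidermis, did not pass the test. Krt6b was at 51.5, 36.7 and 54.8 FPKM in control, 36.4, 54.3 and 31.6 in scMSC and 2131, 2828 and 2272 in DNCB skin, so scMSC libraries overlapped control and lay far below DNCB (adjusted p = 0.789). Krt6a was at 115, 69.5 and 75.7 FPKM in control and 205, 334 and 119.9 in scMSC skin, with every scMSC library above every control library (1.20 ± 0.55, adjusted p = 0.159).

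Small proline-rich proteins, which are crosslinked into the cornified envelope, were called in both directions. Sprr1a was at 44.6, 53.9 and 60.9 FPKM in control and 568, 1584 and 614 in scMSC skin (3.99 ± 0.42, adjusted p = 0.000777). Sprr2b went the other way, from 9.03, 11.8 and 22.2 in control to 1.25, 1.51 and 1.59 FPKM in scMSC skin (-3.44 ± 0.39, adjusted p = 0.000986), and DNCB skin was at 69.7, 169.9 and 102 FPKM. For Sprr2b, scMSC skin was therefore below both control and DNCB skin, with no overlap. Sprr2d, Sprr2e, Sprr2g and Sprr2i also fell, by 2.91, 5.43, 4.15 and 3.51 on the log2 scale (adjusted p = 0.00183, 0.00768, 0.0211 and 0.0143). Sprr2 genes are near copies and can share reads. S100a7a, an antimicrobial calcium-binding protein, was at 0.887, 1.26 and 1.05 FPKM in control and 31.8, 97.5 and 29.9 in scMSC skin (5.50 ± 0.57, adjusted p = 0.000777). The gap junction genes Gjb2 (3.60 ± 0.44, adjusted p = 0.00115) and Gjb6 (1.99 ± 0.38, adjusted p = 0.00594) were also higher than in control. Sprr1a, S100a7a and the junction genes had replicate 2 as the highest scMSC library, as did the hair keratins, and the part of follicle keratinocytes in these values was not tested. The calls lower numbered 6 without control replicate 2, without control replicate 3 or without scMSC replicate 3, and the Benjamini-Hochberg adjusted p of Krt17, called higher here at 0.0286, rose to at most 0.146 over the alternatives.

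Differentiated epidermis held 1 very large difference. Krt77, a keratin of the suprabasal epidermis between follicles, was at 782, 694 and 1030.3 FPKM in control and 32.4, 6.97 and 5.24 in scMSC skin (-5.99 ± 0.89, adjusted p = 0.00188). DNCB skin held 1.45, 0.162 and 0.636 FPKM, so scMSC skin stood well above DNCB (4.31 ± 0.83, adjusted p = 0.00753) and far below control. Of the 38 tested epidermal keratins and cornification genes, 3 were called higher and 4 lower, 7.89% and 10.5% of the list against 5.12% and 4.2% of all genes. Lce1m, a late cornified envelope gene, was at 175, 221 and 325 FPKM in control, 125, 66.9 and 28.8 in scMSC and 3.63, 1.45 and 2.52 in DNCB skin (-1.87 ± 0.48 against control, adjusted p = 0.0213), and the call was lost without control replicate 3 or scMSC replicate 2 (up to 0.0691). The basal keratin Krt14 did not pass the test, at 737, 745 and 1202 FPKM in control and 962, 969.5 and 733 in scMSC skin (adjusted p = 0.821), and the groups overlapped. Cldn4, a tight junction gene, was higher in scMSC skin, at 82.7, 168 and 109 FPKM against 28.6, 36.1 and 50.3 (1.51 ± 0.31, adjusted p = 0.00738). Counts in this list were small and moved with single libraries: without scMSC replicate 2, 1 member was called higher and 1 lower.

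Barrier lipid and gland genes gave few calls. Of 30 barrier lipid enzymes 2 were called lower (6.67%, near the 4.2% of all genes), Alox12b and Sptlc3, and none higher. Without control replicate 3, scMSC replicate 2 or scMSC replicate 3 that count was 1, and without scivMSC replicate 3 it was 4. Of 26 sebaceous genes 3 were called higher (Fads2, Fads3 and Pm20d1) and 2 lower (Fasn and Agpat2). These are 11.5% and 7.69% of the list, against 5.12% and 4.2% of all genes. However, 6 were called lower without scMSC replicate 1 and 5 without scivMSC replicate 3, and 1 was called higher without scMSC replicate 2. Sptlc3, a subunit of the first enzyme of ceramide synthesis, was at 7.13, 8.0 and 12.7 FPKM in control and 5.71, 3.4 and 3.2 in scMSC skin (-1.33 ± 0.25, adjusted p = 0.00503). Fasn, fatty acid synthase, was at 32.8, 55.9 and 43.9 FPKM in control and 25.8, 21.5 and 23.3 in scMSC skin (-1.08 ± 0.20, adjusted p = 0.00536). Elovl3, a fatty acid elongase that was at 14.4, 3.2 and 8.27 FPKM in DNCB skin, was at 63.4, 79.1 and 80.6 in control and 66.3, 58.6 and 59.9 in scMSC skin, with no call against control (adjusted p = 0.602). No sterol synthesis gene of 26 was called by edgeR, where 1 was higher and 12 lower at an unadjusted p under 0.05. At an adjusted p under 0.05, 8 of the 26 were lower and 0 higher, so these 8 missed only the limit on fold. Of the 21890 genes tested, 1778 were lower at that adjusted p with no limit on fold. The log2 difference was negative for 22 of the 26, with a median of -0.42 and a lowest value of -0.99. DESeq2 called 1 lower and limma called 0. Leaving out 1 library gave 0 to 3 calls lower, the most without control replicate 1.

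**Figure D5:**
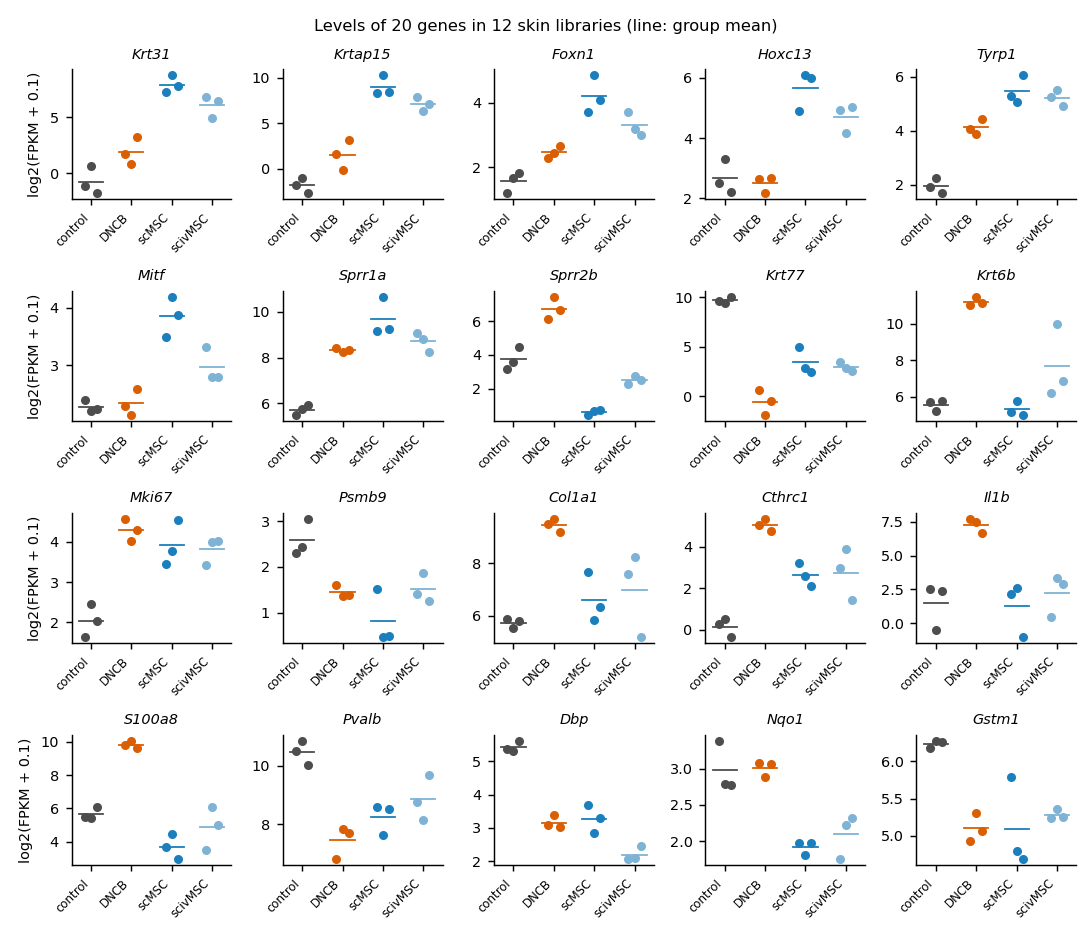
Level of 20 genes, as log2(FPKM + 0.1) (y), in 12 libraries by group (x), 1 point per library and a line at the group mean. Krt31, Krtap15, Foxn1, Hoxc13, Tyrp1 and Mitf are highest in scMSC skin, Krt77 lies between DNCB and control, and Krt6b overlaps control.

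Proliferation genes stayed above control. Of 25 mitosis genes, 16 were called higher and none lower, with a median of 1.28, and all 25 had a positive log2 difference. The median for DNCB against control was 2.07, with 25 called higher, beside 6.59% of all genes. Mki67, the Ki-67 antigen of cycling cells, was at 2.99, 5.35 and 4.0 FPKM in control, 10.9, 13.5 and 23.2 in scMSC and 23.5, 16.1 and 19.6 in DNCB skin (1.78 ± 0.32 against control, adjusted p = 0.0043). The scMSC libraries were all above control and overlapped DNCB. Ccnb1, the mitotic cyclin, was at 1.03, 2.33 and 1.39 FPKM in control and 4.14, 5.57 and 7.52 in scMSC skin (1.69 ± 0.32, adjusted p = 0.00553). Kif11, a spindle motor, rose by 1.79 (adjusted p = 0.00267). The highest scMSC library for Mki67 and Ccnb1 was replicate 3, and without it 10 of the 25 were called higher, as with the 6 libraries alone. Growing hair matrix is itself a dividing tissue, and its part in these counts was not tested.

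Of 45 tested interferon-stimulated genes, 8 were called lower (17.8%, against 4.2% of all genes) and none higher, so 37 were not called, 43 had a negative log2 difference, and the median was -1.12. For DNCB against control the median was -0.54, with 7 called lower, beside 7.57% of all genes. Irgm1 and Gbp3 are interferon-induced GTPases, and their promoters are shown with the core of the interferon response element, GAAA followed after any 2 bases by a second GAAA, in capitals. The RefSeq windows lie at chr11:48871421-48871670 on the minus strand and chr3:142559794-142560043 on the plus strand of GRCm38.p6. Each holds 2 overlapping copies, which in Gbp3 read on the opposite strand.
Irgm1: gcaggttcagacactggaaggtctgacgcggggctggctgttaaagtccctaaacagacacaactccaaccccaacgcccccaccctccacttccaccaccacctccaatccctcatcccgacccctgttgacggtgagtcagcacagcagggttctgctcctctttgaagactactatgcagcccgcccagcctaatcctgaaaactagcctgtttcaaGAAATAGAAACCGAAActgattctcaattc
Gbp3: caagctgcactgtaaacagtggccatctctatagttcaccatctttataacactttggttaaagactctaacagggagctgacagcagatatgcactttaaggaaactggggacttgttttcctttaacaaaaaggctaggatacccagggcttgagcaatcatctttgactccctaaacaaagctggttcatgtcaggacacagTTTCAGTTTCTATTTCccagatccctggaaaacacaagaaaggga
This core was found on either strand in 16 of the 30 list members with a window (53.3%), in 4 of the 6 called members with one, and in 2.98% of all windows.

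Irgm1 was at 3.62, 3.87 and 4.87 FPKM in control and 2.78, 1.18 and 1.44 in scMSC skin (-1.37 ± 0.28, adjusted p = 0.00742). Gbp3 was at 3.6, 2.53 and 4.77 FPKM in control and 2.15, 0.816 and 0.938 in scMSC skin (-1.65 ± 0.37, adjusted p = 0.0119). The 2 groups did not overlap, and scMSC replicate 1 was the library nearest to control for each gene. Psmb9 and Psmb8 encode subunits of the immunoproteasome, which trims peptides for antigen display. Psmb9 was at 4.84, 5.3 and 8.15 FPKM in control and 2.76, 1.28 and 1.31 in scMSC skin (-1.93 ± 0.30, adjusted p = 0.00233). Psmb8 fell by 1.23 (adjusted p = 0.00126). Isg15, a ubiquitin-like interferon product, did not pass the test and was at 8.73, 7.24 and 15.5 FPKM in control and 25.2, 8.42 and 16.6 in scMSC skin (adjusted p = 0.365). Without scMSC replicate 1, 19 members were called lower, and DESeq2 called 17, while the 6 libraries alone and limma on log2(FPKM + 1) called 5 each.

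Antigen presentation and lymphocyte genes had few calls, all lower, beside 4.2% of all genes called lower. The calls were 9.09% of the Langerhans and dendritic cell list and 6.25% of the T cell list. Of 17 B and plasma cell genes 1 was called, Ighm (5.88%), and of 5 gamma-delta T cell genes 1, Trdc. The T cell and B cell shares lie near that of all genes. Of 22 Langerhans and dendritic cell genes 2 were called, H2-Eb1 and H2-DMb1, and H2-Eb1 was at 32.3, 25.5 and 42.1 FPKM in control and 27.5, 14.2 and 9.89 in scMSC skin (-1.11 ± 0.34, adjusted p = 0.046). The groups overlapped through scMSC replicate 1. Calls in that list numbered 9 without scMSC replicate 1, 6 without scivMSC replicate 3, 1 without control replicate 1, any DNCB library, scivMSC replicate 1 or scivMSC replicate 2, and 0 without scMSC replicate 2, scMSC replicate 3 or control replicate 3. The adjusted p of H2-Eb1 was up to 0.131 over the alternatives. Of 32 T cell genes, Itgae and Cd3g were called lower. Itgae, the integrin of epidermal resident T cells, was at 0.952, 0.557 and 1.47 FPKM in control and 0.464, 0.243 and 0.306 in scMSC skin (-1.71 ± 0.35, adjusted p = 0.0078). Trdc, the constant region of the delta T cell receptor, fell from 0.501, 0.413 and 1.12 to 0.361, 0.132 and 0.0981 FPKM (-1.92 ± 0.52, adjusted p = 0.0273). Ighm, the immunoglobulin M heavy chain, was at 12.7, 9.76 and 20.8 FPKM in control and 6.21, 3.81 and 2.28 in scMSC skin (-1.96 ± 0.42, adjusted p = 0.0101). Without scMSC replicate 1, 6 T cell genes were called lower, and with the 6 libraries alone 0 were, as with limma on log2(FPKM + 1). Without control replicate 3, without scMSC replicate 2 or without scMSC replicate 3, Trdc was not called. Ccl19, a chemokine that draws T cells and dendritic cells, was at 1.3, 0.633 and 0.562 FPKM in control and listed at 0 in all 3 scMSC libraries, at least 5.57-fold lower.

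Innate inflammation genes gave few calls against control skin. Of 21 neutrophil genes, 19 were called higher in DNCB than in control skin, beside 6.59% of all genes, at a median of 4.93. In scMSC skin 1 was called higher (4.76%, near the 5.12% of all genes) and 2 lower (9.52%, against 4.2%). The median for scMSC was -0.80. In this list 7 genes were at the detection floor in only 1 of the scMSC and control groups. With these set to their bounds and genes at the floor in both groups left out, the median was -0.33. Il1b, the inflammatory cytokine interleukin 1 beta, was at 5.8, 0.608 and 5.25 FPKM in control, 208, 179 and 99.8 in DNCB and 4.39, 6.04 and 0.388 in scMSC skin. Control and scMSC libraries overlapped, and no difference passed the test (adjusted p = 0.904). S100a8, an alarmin of granulocytes and stressed keratinocytes, was at 44.5, 42.7 and 67.8 FPKM in control and 12.5, 21.9 and 7.56 in scMSC skin (-2.01 ± 0.56, adjusted p = 0.0301), and at 905, 1053 and 788 in DNCB skin. Leaving out any 1 control library, scMSC replicate 1 or scMSC replicate 3 took S100a8 over the threshold, with an adjusted p of at most 0.0946. Cxcr2, a neutrophil chemokine receptor, was at 1.49, 2.14 and 2.2 FPKM in control and 0.919, 1.0 and 0.964 in scMSC skin (-1.17 ± 0.19, adjusted p = 0.00302). Padi4, the member called higher, encodes an arginine deiminase that is not restricted to neutrophils. It was at 0.308, 0.825 and 0.56 FPKM in control and 12.1, 31.0 and 13.8 in scMSC skin (4.93 ± 0.49, adjusted p = 0.000777), while the defining marker Ly6g was at 0 in all 6 libraries. Of 34 chemokines Cxcl14 was called higher and Ccl19 lower, 2.94% each and under the shares of all genes. The calls were 0 higher without control replicate 2, control replicate 3 or scMSC replicate 2, and 3 lower without scMSC replicate 1. Of 24 Toll-like and Fc receptor genes none was called by edgeR, with 3 lower at an unadjusted p under 0.05, 1 lower by DESeq2 and 0 by limma. In DNCB against control skin 11 of these 24 were called higher, beside 6.59% of all genes.

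Of 16 tested mast cell genes, 4 were called higher (against 5.12% of all genes) and none lower, with a median of 1.12, beside 1.41 for DNCB. Fcer1a, the binding chain of the high-affinity IgE receptor, was at 0.131, 0.356 and 0.108 FPKM in control, 1.49, 1.47 and 0.424 in scMSC and 2.75, 3.09 and 2.79 in DNCB skin (2.28 ± 0.61 against control, adjusted p = 0.0266), and its call was lost without control replicate 1, control replicate 3, scMSC replicate 1 or scMSC replicate 2 and with the 6 libraries alone (up to 0.109). Tpsab1, a tryptase, was at 0.776, 0.536 and 0.115 FPKM in control and 5.04, 2.16 and 2.23 in scMSC skin (2.51 ± 0.76, adjusted p = 0.0429). That call was lost in 12 of 24 settings, including without any 1 control, scMSC or DNCB library and without scivMSC replicate 1, with an adjusted p of up to 0.107. Mcpt4, a chymase of connective tissue mast cells, had every scMSC library above every control library, at 35.6, 15.8 and 16.9 against 14.3, 7.76 and 10.1 FPKM, but did not pass the test (adjusted p = 0.299). The other calls were Slc18a2, an amine transporter, and Kit, which melanocytes also make. Without control replicate 1 there was 1 call, without control replicate 3, scMSC replicate 1 or scMSC replicate 2 there were 2, and without scivMSC replicate 3 there were 7.

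Type 2 and itch genes gave 2 calls in 28, both higher (7.14%, near the 5.12% of all genes). F2rl1, the protease-activated receptor that tryptase can cleave, was at 4.3, 5.44 and 5.98 FPKM in control and 13.9, 20.8 and 11.2 in scMSC skin (1.40 ± 0.28, adjusted p = 0.00742). Trpv3, a heat-sensitive channel of keratinocytes, was at 3.24, 4.84 and 5.29 FPKM in control and 12.3, 24.3 and 10.3 in scMSC skin (1.68 ± 0.31, adjusted p = 0.00516). In DNCB skin neither was called against control (adjusted p = 0.261 and 0.665). Without scMSC replicate 2, 1 member was called higher.

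Matrix genes gave few calls against control skin. Of 37 tested collagens 2 were called higher (5.41%) and 1 lower (2.70%), at a median of 0.28. Of 34 wound matrix genes 3 were called higher (8.82%), at a median of 0.31. Over all genes 5.12% were called higher and 4.2% lower, so the collagen shares lie near or under that background. The medians for DNCB against control were 1.37 and 1.52. Col1a1, the main dermal collagen, was at 58.2, 46.6 and 56.1 FPKM in control, 201, 56.5 and 81.2 in scMSC and 710.3, 810.3 and 584 in DNCB skin. The scMSC and control libraries overlapped and scMSC replicate 1 stood apart from the other two (adjusted p = 0.342). Col12a1, which decorates collagen fibrils, remained above control, at 4.74, 4.04 and 2.87 against 1.15, 1.2 and 1.73 FPKM (1.36 ± 0.30, adjusted p = 0.0116), with DNCB skin at 46.9, 47.7 and 39.9. Cthrc1, a secreted protein of repairing fibroblasts, was at 1.09, 1.34 and 0.672 FPKM in control, 9.23, 5.9 and 4.23 in scMSC and 33.4, 40.2 and 27.1 in DNCB skin (2.46 ± 0.54 against control, adjusted p = 0.0105). It lay between control and DNCB skin without overlap. Lrrc15, a membrane protein of activated fibroblasts that follicles also express, was at 1.64, 4.06 and 1.26 FPKM in control and 79.7, 239 and 49.3 in scMSC skin (5.58 ± 0.76, adjusted p = 0.0014), and replicate 2 was again the highest scMSC library. The other collagens called were Col11a1, higher, and Col8a2, lower. The call of Col8a2 was lost in 10 of 24 settings (adjusted p up to 0.128), including with library size alone and on leaving out control replicate 1, control replicate 3, scMSC replicate 2, scMSC replicate 3, or any of DNCB replicates 1 and 3 and scivMSC replicates 1 and 2. Neither of the calls higher was made without control replicate 1, and 1 was made without control replicate 2, control replicate 3 or scMSC replicate 2. The adjusted p of Col12a1 was up to 0.0622 over the alternatives. The third wound matrix gene called was Runx1, and 5 were called without scMSC replicate 3 or without scivMSC replicate 3. Of 12 small leucine-rich proteoglycans none was called by edgeR, DESeq2 or limma, and none had an unadjusted p under 0.05.

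Skeletal muscle genes, from the thin muscle sheet under mouse skin, were lower in treated than in control skin. Of 27 tested, 19 were called lower (70.4%, against 4.2% of all genes) and none higher, with a median of -1.58, beside -1.93 for DNCB. Pvalb, a calcium buffer of fast fibres, was at 1447, 1823 and 1034 FPKM in control and 382, 199 and 364 in scMSC skin (-2.37 ± 0.45, adjusted p = 0.00556). Tnnc2, fast troponin C, was at 4721, 4784 and 3464 FPKM in control and 1063, 609 and 1269 in scMSC skin (-2.32 ± 0.43, adjusted p = 0.00503). Muscle genes took 10.3%, 9.29% and 7.16% of the estimated counts in control libraries and 3.78%, 2.22% and 4.97% in scMSC libraries. How much muscle each piece of skin held was not measured, and its part in other genes was not tested. Of 25 adipocyte genes 4 were called lower (16.0%, against 4.2% of all genes), Retn, Slc2a4, Thrsp and Car3. Slc2a4 and Car3 are also made by muscle. Retn, the adipocyte hormone resistin, was at 29.5, 35.9 and 20.7 FPKM in control and 13.2, 9.3 and 9.03 in scMSC skin (-1.62 ± 0.35, adjusted p = 0.00997). Fabp4 and Cfd, abundant adipocyte genes, did not pass the test (adjusted p = 0.613 and 0.551).

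Of 18 genes of the circadian clock, 4 were called lower (22.2%, against 4.2% of all genes) and none higher, and limma on log2(FPKM + 1) called 2. Dbp, a clock-driven transcription factor, was at 40.9, 39.6 and 48.6 FPKM in control, 8.41, 10.3 and 7.98 in DNCB, 12.7, 7.07 and 9.64 in scMSC and 4.07, 4.14 and 5.4 in scivMSC skin (-2.30 ± 0.21 for scMSC against control, adjusted p = 0.000777). Every library of the 3 groups given DNCB was below every control library. Nr1d1, a clock repressor, was at 53.2, 41.5 and 44.5 FPKM in control and 21.1, 13.4 and 13.4 in scMSC skin (-1.71 ± 0.17, adjusted p = 0.000777). Per3 and Hlf fell by 1.24 and 1.20 (adjusted p = 0.00536 and 0.00614). The hour at which each animal was sampled is not given in the sources used here, so it cannot be told apart from the groups.

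Electrophiles such as DNCB are handled by glutathione and its enzymes. Of 42 electrophile and glutathione genes, 7 were called lower (16.7%, against 4.2% of all genes) and 3 higher (7.14%, near the 5.12% of all genes), with a median of -0.45. Gstm1, a glutathione transferase, was at 71.9, 76.8 and 76.3 FPKM in control and 54.9, 27.8 and 25.7 in scMSC skin (-1.23 ± 0.23, adjusted p = 0.0055). Nqo1, a quinone reductase induced by Nrf2, was at 10.3, 6.8 and 6.74 FPKM in control, 8.37, 7.29 and 8.29 in DNCB and 3.84, 3.41 and 3.82 in scMSC skin (-1.27 ± 0.23 against control, adjusted p = 0.00452). Among these 3 groups, which leave out scivMSC skin, Nqo1 was lowest in scMSC skin. Nqo1 was not called between scMSC and scivMSC skin. The 3 called higher were Gpx2, a glutathione peroxidase (1.52 ± 0.36, adjusted p = 0.0144), Slc7a11, the cystine importer (1.67 ± 0.43, adjusted p = 0.0216), and Gclm, of glutathione synthesis. The calls lower fell to 4 with library size alone as the scaling and with limma on log2(FPKM + 0.1) or log2(FPKM + 0.01), and to 2 with limma on log2(FPKM + 1), and the calls higher to 0 without scMSC replicate 2 and to 1 without control replicate 1 or without control replicate 3.

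The remaining lists gave 0 to 2 calls in either direction, beside 5.12% of all genes called higher and 4.2% lower. Among JAK-STAT genes, Stat5a and Socs3 fell by 1.12 and 1.09 (adjusted p = 0.00122 and 0.0411). Stat5a was at 4.39, 3.8 and 4.38 FPKM in control and 2.61, 1.78 and 2.11 in scMSC skin, with no overlap. Among imprinted growth genes, H19, a long non-coding RNA, was at 270.0, 262 and 242 FPKM in control and 87.1, 58.9 and 158 in scMSC skin (-1.52 ± 0.39, adjusted p = 0.0212), a call lost without scMSC replicate 1 or scMSC replicate 2 (up to 0.0615). Dio3, which inactivates thyroid hormone, was at or under the floor in control and at 2.07, 4.6 and 0.733 FPKM in scMSC skin, at least 27.7-fold higher. Of 13 senescence and p53 genes 1 was called higher and 1 lower, at a median of 0.23. At an adjusted p under 0.05 with no limit on fold (edgeR), 4 were higher and 1 lower. The member called lower was Ccng1, a p53 target, which fell from 126, 119.7 and 107 to 49.2, 28.2 and 51.6 FPKM (-1.63 ± 0.21, adjusted p = 0.00124). Of 13 Schwann cell and nerve genes none was called by edgeR, with 4 lower at an unadjusted p under 0.05, 1 lower by DESeq2 and 0 by limma. Of 25 macrophage genes, 1 was called higher, Gpnmb, which melanocytes also express (3.19 ± 0.32, adjusted p = 0.000777). Counts this small moved with single libraries. The calls of Ccr3 among 5 eosinophil and basophil genes and of Apln among 20 endothelial genes were lost when most single libraries were left out, 6 IL-1 family genes in place of 1 were called lower without scMSC replicate 1, and 1 JAK-STAT gene in place of 2 was called without control replicate 1, control replicate 2, scMSC replicate 2, scMSC replicate 3 or DNCB replicate 3, and 0 with library size alone and under all 3 limma settings.

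A list of 58 genes measured in skin had been picked on these same samples, so its counts are not independent of them. In scMSC against control skin 1 of the 58 was called higher and 4 lower, 1.72% and 6.90% beside 5.12% and 4.2% of all genes. In DNCB against control skin 30 were called higher and 8 lower, beside 6.59% and 7.57% of all genes. The member called higher was Tgm3, a transglutaminase of the envelope and of the hair shaft, at 8.39, 12.5 and 17.2 FPKM in control and 26.5, 47.4 and 23.0 in scMSC skin (1.22 ± 0.35, adjusted p = 0.0371), a call lost without control replicate 1, control replicate 2, scMSC replicate 2 or scivMSC replicate 1 (up to 0.192). Those called lower were Klk14, Lce3a, Lcn2 and Cxcr2. Lcn2, an iron-binding defence protein, was at 5.48, 2.99 and 4.18 FPKM in control, 2.53, 2.13 and 1.39 in scMSC and 25.9, 26.9 and 26.2 in DNCB skin (-1.22 ± 0.26 against control, adjusted p = 0.00933). Lce3a was at 1.43, 2.49 and 2.23 FPKM in control and at or under the floor in scMSC skin, at least 8.52-fold lower (adjusted p = 0.0424). That call was lost in 11 of 24 settings, including the replicate block and without any 1 control or DNCB library, scMSC replicate 2 or scMSC replicate 3, with an adjusted p of up to 0.127. Without scMSC replicate 2 or scMSC replicate 3, 2 were called lower, and without scivMSC replicate 2, 7 were. None was called higher without control replicate 1, scMSC replicate 2 or scivMSC replicate 1, and 3 were without scMSC replicate 3.

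The 12 largest falls were Usf2-ps1, Gm5849, Gm10801, Gm31378, Snord12, Krt77, Mrgprb11-ps, Gm27477, Sprr2e, Lce3a, Gm10800 and Mup22. Counts of pseudogenes such as Usf2-ps1 and of near copies are uncertain, since they can share reads with other genes. Usf2-ps1 was at 12.6, 4.83 and 14.7 FPKM in control and listed at 0 in all 3 scMSC libraries, at least 24.9-fold lower, with scivMSC libraries at 11.0, 0 and 13.9. Mup22, of the major urinary protein family that liver makes, fell from 74.2, 20.7 and 16.7 to 0.334, 0.0397 and 4.45 FPKM (-4.73 ± 1.48, adjusted p = 0.0477), and the part of the liver RNA seen as Alb in it was not tested. The call of Mup22 was lost in 14 of 24 settings (adjusted p up to 0.130), including the replicate block, library size alone and without any 1 control or DNCB library, scMSC replicate 1 or 2, or scivMSC replicate 1 or 3.

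A comparison that shares no library with this one is scivMSC against DNCB skin, the same cells by 2 routes against untreated dermatitis. There 5.46% of all genes were called, 686 (3.13%) higher and 509 (2.33%) lower. Of the 1120 genes higher in scMSC than in control skin, 225 were also called higher in scivMSC than in DNCB skin, 20.1% of the first list and 32.8% of the second, and 18 were called lower there. Of the 920 genes lower in scMSC skin, 34 were called lower there, 3.7% and 6.68% of the lists, and 37 were called higher. Hair keratins and keratin-associated proteins gave 13 and 45 of the calls higher in scivMSC against DNCB skin. Between scMSC and scivMSC skin edgeR called 1 gene (0.00457%), with 1642 (7.5%) at an unadjusted p under 0.05.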

How the data were processed

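Total RNA of dorsal skin was sequenced from 12 mice, 3 per group. The submitters' processing notes name HISAT2 2.0, StringTie 1.3.0, Bowtie 0.12.2 and mouse build mm8, with no role or order given, while 36248 of the 36287 gene identifiers found in GENCODE M21 overlap their GRCm38 position, so the table's coordinates were read as GRCm38. The deposited estimated counts are whole numbers per gene and library, and the deposited FPKM values scale them by gene length and library total, both made by the authors from reads assigned to the mouse genome. Whether RNA of the human cells could enter these counts was not tested. The estimated counts are not raw reads: multiples of 4 made up 39.0% to 41.2% of the values from 1 to 18, so 1 fragment was taken as about 4 estimated counts and the floor of 3 fragments as 12. That floor covers counting error only.

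Counts of the 21890 genes averaging 0.1 FPKM or more were fitted in edgeR 4.0.16 (R 4.3.3) with TMM scaling in 1 quasi-likelihood model of the 4 groups, and p-values were adjusted by Benjamini-Hochberg over all of them. A gene was called at an adjusted p under 0.05 and a fold above 2. This replaces the study's own selection (unadjusted p under 0.5 and fold over 2), which is given as an alternative. Fold changes are scaled by TMM and the FPKM values printed beside them by library total. Each SE is the absolute log2 difference divided by the square root of the F of its test. It therefore rests on the spread in the model of all 12 libraries, not on the 6 libraries compared. With 3 libraries on each side the smallest two-sided p of an exact permutation test is 0.1 for a single gene, so p-values come from the shared spread over genes, and n = 3 animals per group limits them. DESeq2 1.42.0 and limma 3.58.1, on log2(FPKM + 0.1), log2(FPKM + 1) and log2(FPKM + 0.01), were alternatives, and the fit was tested on simulated data. Figures were drawn with matplotlib 3.10.9.

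The gene lists and the members named were chosen with earlier results of these data known. Named were the 12 called genes with the largest fold in each direction with non-overlapping groups and an average of 1 FPKM or more, up to 8 called and 4 uncalled members per list, and genes that the study measured in skin. Promoter sequences are from RefSeq on GRCm38.p6, matched by symbol, and genes with no entry were left out of motif counts.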

Additional observations from a re-analysis of the deposited data

Results flagged for a closer look

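Ccdc50, which encodes a ubiquitin-binding adaptor, was the only gene called between scMSC and scivMSC skin (edgeR, Benjamini-Hochberg), 0.00457% of the genes tested. Whether the route accounts for it was not tested. It was at 7.13, 9.63 and 10.5 FPKM in control, 9.24, 8.84 and 9.43 in DNCB, 1.34, 1.11 and 1.61 in scMSC and 10.4, 10.2 and 6.55 in scivMSC skin. The scMSC libraries did not overlap any other group. The log2 difference was -2.72 ± 0.19 between scMSC and scivMSC skin (adjusted p = 0.000511) and -2.90 ± 0.19 between scMSC and control skin (adjusted p = 0.00022). It was lower in 3 of 3 scMSC libraries.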

How the results depend on the processing

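Of the 138 genes named, 127 had an adjusted p under 0.05, and 88 of these stayed under it in every setting, 39 were over it in 1 or more, and 0 changed direction. Beside the 2040 genes called, limma on log2(FPKM + 1) called 1300, no limit on fold gave 4049, and a fold over 2 at a p under 0.05 without adjustment gave 3086, or 5282 at a p under 0.5. Leaving out 1 library gave 1364 (without scMSC replicate 2) to 2326 (without scMSC replicate 1). The other settings ranged from 1506, with the 6 libraries alone, to 2669, with DESeq2, of which 50.0% were higher. Limma on log2(FPKM + 0.1) called 2381, 64.7% of them higher, with the median of all genes at 0.15.

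Of the named genes with an adjusted p over 0.05, 3 changed sign in 1 or more settings, Krt14, Fabp4 and Il1b. The others kept their sign, and Krt15 and Krt6a were each under 0.05 in 1 of 24 settings. Krt14 was at 0.017 under each of the 3 limma settings, and with 1 library left out ranged from -0.33 (without scMSC replicate 2) to 0.019 (without control replicate 3). Fabp4 ranged from -0.012 (without control replicate 3) to 0.49 (without scMSC replicate 3). Il1b ranged from -0.95 (without scMSC replicate 2) to 0.30 (without scMSC replicate 3) and was at 0.18 without control replicate 1.

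Libraries with the same replicate number had deviation correlations of -0.012, 0.060 and -0.12 between control and scMSC skin. The labels name no pairing, and values from 3 libraries per group cannot decide whether the numbers pair animals. A fit with the replicate block called 1835 genes. There were 3 animals per group, few estimated counts at low levels, and no group given cells without DNCB or described as injected without cells. Small differences, rare cells and the part of the cells themselves were therefore not resolved.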

Other observations

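The genes given here are in none of the lists and were chosen after their values were seen, so they stand for no group. Of 3 enzymes of glycolysis looked up, each was called lower in scMSC than in control skin. Pkm, pyruvate kinase, was at 326, 346 and 270.2 FPKM in control and 149, 112 and 135 in scMSC skin (-1.42 ± 0.17, edgeR adjusted p = 0.0010). Ldha, lactate dehydrogenase, was at 547, 587 and 436 and 217, 194 and 227 FPKM (-1.47 ± 0.19, adjusted p = 0.00126), and Pgk1, phosphoglycerate kinase, fell by 1.12 on the log2 scale (adjusted p = 0.00117). Skeletal muscle is rich in these enzymes, and muscle genes took 7.16% to 10.3% of the counts in control libraries and 2.22% to 4.97% in scMSC libraries. Mitochondrially encoded genes took 11.1%, 11.0% and 8.15% of the counts in control libraries and 4.83%, 5.08% and 6.26% in scMSC libraries. The part of muscle in either was not tested.

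Pdia4, a disulfide isomerase of the endoplasmic reticulum, was at 15.2, 18.3 and 20.6 FPKM in control and 41.2, 58.3 and 50.4 in scMSC skin (1.32 ± 0.17, edgeR adjusted p = 0.00124). Hspa5, the main chaperone of the compartment, was at 42.7, 23.3 and 60.4 and 70.9, 176 and 126 FPKM (1.44 ± 0.43, adjusted p = 0.0398). The call of Hspa5 was lost in 10 of 24 settings (adjusted p up to 0.177), including the replicate block, the 6 libraries alone and without control replicate 1 or 2, scMSC replicate 2 or 3, DNCB replicate 1, or scivMSC replicate 1 or 3. Hsp90b1 and Creld2, also of that compartment, rose by 1.03 and 1.28 (adjusted p = 0.00339 and 0.00298). Prr9, a proline-rich protein gene, was at 4.21, 16.7 and 2.24 FPKM in control and 828, 2991 and 965 in scMSC skin (7.54 ± 1.04, adjusted p = 0.00146).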
